A study of Mus musculus with 16 samples.

Results

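The genes described here are 46 genes of chromosomal DNA replication. They were listed by name, from the subunits of the replication machinery and the enzymes that supply its deoxynucleotides. The rule used no measured value, but the list was chosen with earlier results of these data known. Of 20173 named genes that could be tested, 46 were these replication genes, and none of the 46 was lost to the filter on dim features. They were read by 57 of the 62976 features of the array. Whole lungs of pups were homogenized at postnatal day 3, and their RNA was read in 4 groups of 4 arrays, 16 arrays in all. In the first group, pups labelled Fgf10+/-, heterozygous for a loss of Fgf10, a growth factor gene of lung development, were kept in 85% oxygen from day 0 to day 3. The second group held Fgf10+/- pups in normoxia, the third wild-type pups in 85% oxygen over the same days and the fourth wild-type pups in normoxia. The sources used here do not give the strain, the litters, the kind of allele or whether each array is a separate pup. The p-values therefore measure only the spread between these arrays, whose number limits the precision.

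Chromosomes are copied once per cell cycle. In G1 the origin recognition complex, with CDC6 and CDT1, loads the ring-shaped MCM helicase onto DNA. At the start of S phase the DBF4-dependent kinase CDC7 and other factors recruit CDC45 and the GINS complex, which turn the ring into an active helicase. Polymerase alpha with its primase then starts each new strand, and polymerases epsilon and delta, held by the PCNA clamp, extend it. Transcription factors of the E2F family are known to drive many of these genes as cells pass from G1 into S phase. The early postnatal lung grows by proliferation of mesenchymal, endothelial and epithelial cells, and exposure of newborn rodents to high oxygen is used to model bronchopulmonary dysplasia.

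Values are log2 intensities, on which a difference of 1 is a 2-fold difference in signal, and the array median was 4.50. Within groups, pairs of arrays correlated over the tested genes at r of 0.974 to 0.983. The lung genes Sftpc and Sftpb, which encode surfactant proteins, had group means of 15.98 to 15.99, at the top of the scale, and of 14.2 to 14.6. The signal of Fgf10, the targeted gene, was not called lower in the arrays labelled Fgf10+/-, with differences from wild type of -0.21 in hyperoxia (adjusted p = 0.835) and 0.48 in normoxia (adjusted p = 0.334). Whether its feature lies in the altered stretch of the gene is not given, so the genotypes are named as labelled. Replicate 4 of wild-type normoxia stood apart, with a mean of 7.76 over 9 skeletal muscle genes against 4.66 to 5.48 in the other 15 arrays. Its mean over 6 brown fat genes was also the highest, at 6.49 against 4.52 to 5.07 in the other 15.

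In 85% oxygen most of the replication genes fell, in both genotypes. In Fgf10+/- lungs 33 of 46 fell and 0 rose, and the other 13 did not pass the test. A gene is called here at an adjusted p under 0.05 in limma, and among all 20173 genes tested 10.7% were called lower and 13% higher in the same comparison (23.7% in either direction). In wild-type lungs 31 of 46 fell, 0 rose and 15 did not pass, against 8.74% of all genes lower and 10.3% higher (19.1% in either direction). The median change of the 46 genes was -0.80 in Fgf10+/- lungs and -0.84 in wild-type lungs, while the median of all genes tested was 0.03 in each. Expressed as rank, 23 of the 46 genes in Fgf10+/- lungs and 26 in wild-type lungs lay in the lowest 5% of all changes. The fall was at least 2-fold for 17 genes in Fgf10+/- lungs and for 14 in wild-type lungs, and for 12 genes in both. All 4 hyperoxia arrays lay below all 4 normoxia arrays for 26 genes in Fgf10+/- lungs and for 32 in wild-type lungs, against 11.1% and 11.2% of all genes. They lay above them for 1 gene in each, Orc4 and Orc3, against 13.8% and 13.6% of all genes. Without the muscle-rich array, 29 genes fell in wild-type lungs, and the calls of Pola1 and Rfc4 were lost. In a homogenate, fewer cells of a type and less RNA per cell cannot be told apart.

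**Figure D1:**
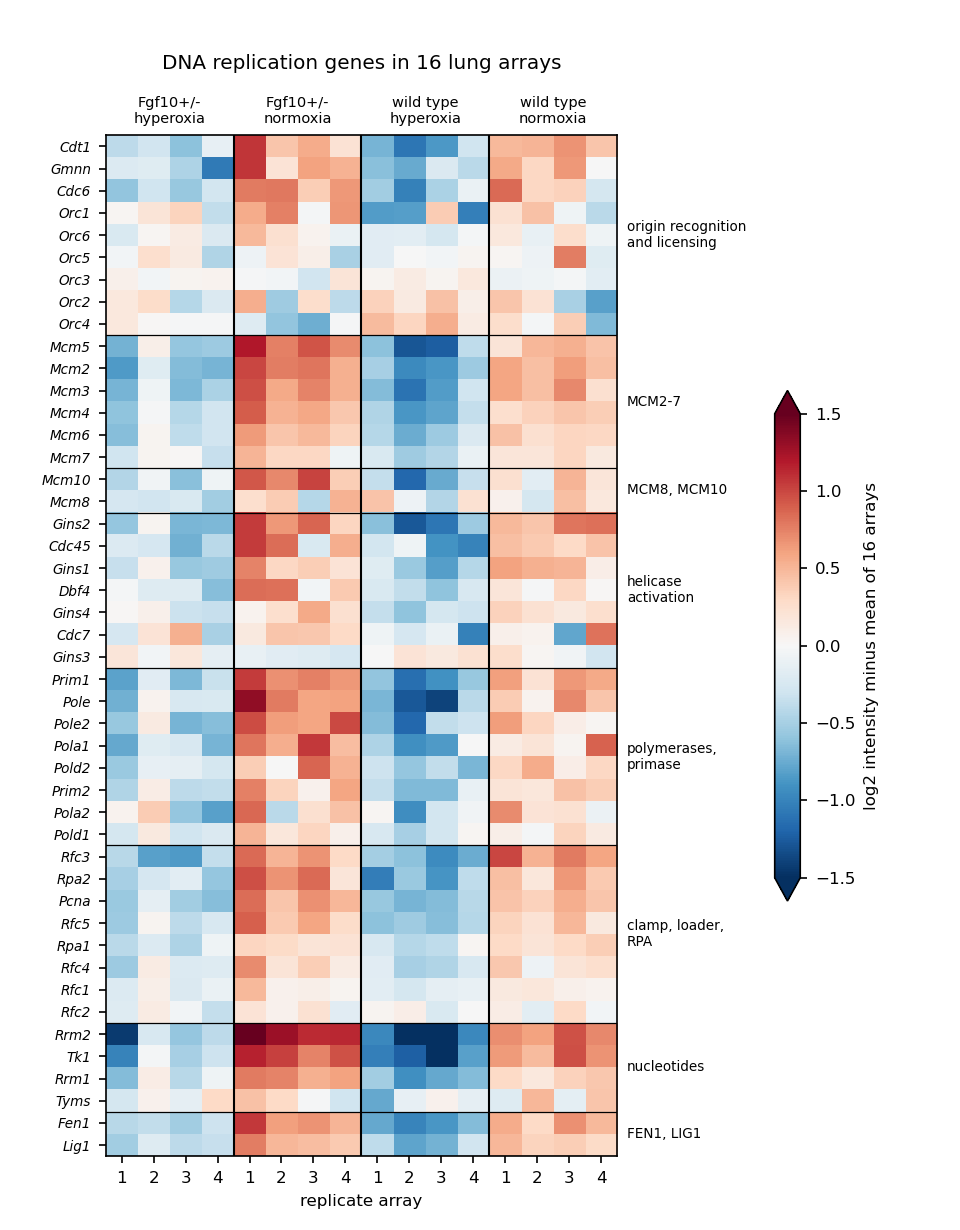
Log2 intensity of the 46 replication genes (rows, grouped by role) in the 16 arrays (columns, by group and replicate), each as the difference from the gene's mean over the 16 arrays; colours saturate at 1.5 above and below that mean. Rows of the MCM, polymerase and nucleotide groups are mostly blue in both hyperoxia groups and red in both normoxia groups, while most Orc rows, Gins3 and Rfc2 show no such split.

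To show what sequence the genes share, 4 E2F motifs were searched in the 300 bases around the annotated start (250 before and 50 after it) in RefSeq, build GRCm38.p6. A window was given for 38 of the 46 genes. The motifs were TTTCCCGC, TTTGGCGC, TTTCGCGC and TTTGCCGC on either strand, some of which can overlap on opposite strands. At least 1 match was found in 15 of 38 replication genes (39.5%), against 2.6% of all 27025 genes with a window and 4.9% of the 7795 genes whose windows are at least 60% G or C. Among replication genes that fell in both genotypes 10 of 24 held a match (41.7%), and among those called in neither 4 of 12 (33.3%). Other promoter motifs, read on both strands, were the CCAAT box (CCAAT) in 60.5% of the replication genes and 41.1% of all genes, the GC box (GGGCGG) in 76.3% and 38.2%, and the CHR element (TTTGAA) in 18.4% and 20.2%. The genes with windows of at least 60% G or C held them in 35.6%, 82.9% and 7.25%, so against that background the direction turned for the GC box and the CHR element. The mean share of G or C was 59.1% in the replication genes, 53.6% in all genes and 67.3% in the G- or C-rich set. Neither background therefore matches the base composition of the replication genes. A match is a description of letters and does not show that a factor binds there.

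The 160 bases before the start are shown for 6 genes, read 5′ to 3′ on the strand of the gene, with E2F matches in capitals. Mcm5, Rfc3 and Mcm6 fell and hold matches, which overlap each other in Mcm5 and at the first site of Mcm6. Rrm2 fell most and holds none of these letters in its window. Orc1 and Gins3 hold a match and were called in neither genotype. The stretches are chr8:75109349-75109508, plus strand (Mcm5), chr5:151651209-151651368, minus strand (Rfc3), chr1:128359706-128359865, minus strand (Mcm6), chr12:24708094-24708253, plus strand (Rrm2), chr4:108579294-108579453, plus strand (Orc1) and chr8:95633399-95633558, plus strand (Gins3).
Mcm5: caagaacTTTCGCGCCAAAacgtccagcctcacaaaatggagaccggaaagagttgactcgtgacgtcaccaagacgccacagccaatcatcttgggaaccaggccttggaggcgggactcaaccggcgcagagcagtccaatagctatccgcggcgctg
Rfc3: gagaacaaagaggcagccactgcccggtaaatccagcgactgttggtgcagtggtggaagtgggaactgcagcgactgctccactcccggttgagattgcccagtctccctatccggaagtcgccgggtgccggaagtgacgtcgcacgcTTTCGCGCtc
Mcm6: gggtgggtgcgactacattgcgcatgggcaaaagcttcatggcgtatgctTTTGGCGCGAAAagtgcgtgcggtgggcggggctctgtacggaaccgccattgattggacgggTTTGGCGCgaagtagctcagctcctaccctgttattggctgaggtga
Rrm2: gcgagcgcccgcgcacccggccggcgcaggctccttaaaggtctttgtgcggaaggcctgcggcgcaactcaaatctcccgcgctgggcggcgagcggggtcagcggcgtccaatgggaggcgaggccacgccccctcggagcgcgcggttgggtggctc
Orc1: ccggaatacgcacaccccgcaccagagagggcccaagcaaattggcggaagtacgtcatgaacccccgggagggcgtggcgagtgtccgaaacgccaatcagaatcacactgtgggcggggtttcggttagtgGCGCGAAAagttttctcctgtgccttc
Gins3: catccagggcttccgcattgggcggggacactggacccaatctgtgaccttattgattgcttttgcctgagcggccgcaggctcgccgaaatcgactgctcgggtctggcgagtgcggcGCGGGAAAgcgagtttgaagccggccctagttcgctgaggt

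The size of the fall differed between roles. By class, the median change was -1.18 in Fgf10+/- and -1.45 in wild-type lungs for the 4 nucleotide supply genes, -1.06 and -1.09 for the 6 subunits of the MCM helicase, and -1.005 and -1.12 for the flap endonuclease and ligase of Okazaki fragments. It was -0.91 and -0.84 for the 8 polymerase and primase subunits, -0.75 and -0.62 for the 7 genes of helicase activation, and -0.69 and -0.70 for the 8 genes of the clamp, its loader and the single-strand binding protein. The smallest median was that of the 9 genes of origin recognition and licensing, at -0.24 in Fgf10+/- and -0.22 in wild-type lungs. These medians describe the classes and were not tested against each other.

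Among the 9 licensing genes Cdt1, Cdc6 and Gmnn fell, and none of the 6 subunits of the origin recognition complex passed the test. Cdt1 encodes the factor that brings the MCM ring to the origin, Cdc6 the ATPase that works with it, and Gmnn encodes geminin, the inhibitor of CDT1. Cdt1 read 8.70, 8.81, 8.48 and 8.97 in the Fgf10+/- hyperoxia arrays and 10.16, 9.50, 9.65 and 9.30 in the Fgf10+/- normoxia arrays. It read 8.40, 8.01, 8.23 and 8.79 in wild-type hyperoxia and 9.58, 9.60, 9.76 and 9.51 in wild-type normoxia. The hyperoxia arrays were the lower ones in both genotypes, with no overlap. The change was -0.92 (95% interval -1.32 to -0.51, adjusted p = 0.00265) in Fgf10+/- pups and -1.26 (95% interval -1.66 to -0.85, adjusted p = 0.000396) in wild-type pups. Gmnn fell (-1.08 in Fgf10+/- lungs and -0.88 in wild-type lungs), and Cdc6 fell (-1.08 in Fgf10+/- and -0.84 in wild-type lungs). Both have a second, dimmer feature with smaller or less even changes: for Gmnn it gave -0.14 in Fgf10+/- and -0.32 in wild-type lungs, and with the mean of both features neither Gmnn call held (-0.61, adjusted p = 0.0937, in Fgf10+/- and -0.60, adjusted p = 0.111, in wild-type lungs), and for Cdc6 -0.16 in Fgf10+/- and -1.36 in wild-type lungs.

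The origin recognition subunits, which mark origins and recruit CDC6, gave no call in either genotype. Their changes in Fgf10+/- and wild-type lungs were -0.44 and -0.63 for Orc1, -0.02 and 0.42 for Orc2, 0.07 and 0.18 for Orc3, 0.42 and 0.38 for Orc4, 0.04 and -0.18 for Orc5, and -0.24 and -0.22 for Orc6. Orc4 had the highest mean change of the class. It read 6.76, 6.62, 6.58 and 6.59 in the Fgf10+/- hyperoxia arrays and 6.41, 6.01, 5.87 and 6.58 in the Fgf10+/- normoxia arrays. Its values were 7.08, 6.93, 7.14 and 6.72 in wild-type hyperoxia and 6.86, 6.58, 6.97 and 5.94 in wild-type normoxia. In Fgf10+/- lungs the hyperoxia arrays lay just above the normoxia arrays, and in wild-type lungs the groups overlapped. The change was 0.42 (95% interval -0.03 to 0.86, adjusted p = 0.174) in Fgf10+/- pups and 0.38 (95% interval -0.06 to 0.82, adjusted p = 0.237) in wild-type pups. The second, dimmer feature of Orc4 gave 0.16 in Fgf10+/- and -0.39 in wild-type lungs, and that of Orc3 gave -0.42 in Fgf10+/- and -0.37 in wild-type lungs, so the direction of Orc3 in both genotypes and of Orc4 in wild-type lungs depends on the feature. Among these 6 subunits Orc1 was the dimmest, with group means of 3.31 to 4.37, all under the array median. Without replicate 3 of wild-type hyperoxia, Orc1 was called lower in wild-type lungs (-0.95, limma adjusted p = 0.0136).

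All 6 subunits of the replicative helicase, Mcm2 to Mcm7, fell in both genotypes. Mcm5, the subunit with the largest mean fall, read 8.26, 9.06, 8.39 and 8.42 in the Fgf10+/- hyperoxia arrays and 10.16, 9.72, 9.91 and 9.68 in the Fgf10+/- normoxia arrays. It read 8.35, 7.69, 7.73 and 8.59 in wild-type hyperoxia and 9.17, 9.46, 9.51 and 9.40 in wild-type normoxia. The highest hyperoxia array of each genotype stayed below its lowest normoxia array. The change was -1.34 (95% interval -1.80 to -0.88, adjusted p = 0.000464) in Fgf10+/- pups and -1.29 (95% interval -1.76 to -0.83, adjusted p = 0.000834) in wild-type pups. Mcm2 read 7.51, 8.18, 7.70 and 7.66 in the Fgf10+/- hyperoxia arrays and 9.36, 9.12, 9.16 and 8.89 in the Fgf10+/- normoxia arrays. Its values were 7.86, 7.40, 7.49 and 7.81 in wild-type hyperoxia and 8.95, 8.81, 8.98 and 8.81 in wild-type normoxia. These groups did not overlap either, and the Mcm2 change was -1.37 (95% interval -1.69 to -1.04, adjusted p = 3.19e-05) in Fgf10+/- and -1.25 (95% interval -1.57 to -0.92, adjusted p = 9.76e-05) in wild-type lungs. Mcm3 fell (-1.18 in Fgf10+/- and -1.22 in wild-type lungs), Mcm4 (-0.94 in Fgf10+/- and -0.96 in wild-type lungs), and Mcm6 (-0.79 in Fgf10+/- and -0.81 in wild-type lungs). The second feature of Mcm3 gave -1.30 in Fgf10+/- and -1.28 in wild-type lungs.

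Mcm7 showed the smallest fall of the ring. It read 10.32, 10.66, 10.64 and 10.27 in the Fgf10+/- hyperoxia arrays and 11.13, 10.93, 10.93 and 10.56 in the Fgf10+/- normoxia arrays. Its values were 10.39, 10.09, 10.17 and 10.52 in wild-type hyperoxia and 10.80, 10.81, 10.94 and 10.76 in wild-type normoxia. The Fgf10+/- groups overlapped, and the wild-type groups did not. The change was -0.42 (95% interval -0.71 to -0.12, adjusted p = 0.0404) in Fgf10+/- pups and -0.54 (95% interval -0.83 to -0.24, adjusted p = 0.0136) in wild-type pups. The Fgf10+/- call of Mcm7 was lost in 8 of 17 alternative settings. The ring holds each of the 6 subunits, but each is read by its own feature, so their levels cannot be set against each other.

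Mcm10 and Mcm8 carry the MCM name and are not part of the ring. MCM10 helps to start the active helicase, and MCM8 is known to act with MCM9 in homologous recombination. Mcm10 read 6.75, 7.14, 6.56 and 7.13 in the Fgf10+/- hyperoxia arrays and 8.12, 7.91, 8.21 and 7.56 in the Fgf10+/- normoxia arrays. It read 6.84, 6.01, 6.43 and 6.84 in wild-type hyperoxia and 7.43, 7.03, 7.71 and 7.37 in wild-type normoxia. Hyperoxia arrays were lower in both genotypes without overlap, with changes of -1.05 (95% interval -1.51 to -0.59, adjusted p = 0.00252) in Fgf10+/- and -0.85 (95% interval -1.31 to -0.39, adjusted p = 0.012) in wild-type lungs. Mcm8 read 4.96, 4.93, 4.99 and 4.70 in the Fgf10+/- hyperoxia arrays and 5.47, 5.59, 4.79 and 5.74 in the Fgf10+/- normoxia arrays. Its values were 5.65, 5.14, 4.78 and 5.45 in wild-type hyperoxia and 5.28, 4.95, 5.66 and 5.38 in wild-type normoxia. These ranges overlapped in both genotypes, and the changes were -0.50 (adjusted p = 0.124) in Fgf10+/- and -0.07 (adjusted p = 0.888) in wild-type lungs. The second, dimmer feature of Mcm8 gave -0.31 in Fgf10+/- and -0.47 in wild-type lungs.

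Of the 7 genes that activate the helicase, 5 fell in Fgf10+/- lungs and 4 in wild-type lungs. The GINS complex has 4 subunits, and they moved unequally. Gins2 read 6.33, 6.96, 6.23 and 6.24 in the Fgf10+/- hyperoxia arrays and 7.97, 7.57, 7.79 and 7.24 in the Fgf10+/- normoxia arrays. It read 6.29, 5.65, 5.83 and 6.38 in wild-type hyperoxia and 7.40, 7.33, 7.72 and 7.75 in wild-type normoxia. The groups did not overlap, and the Gins2 change was -1.20 (95% interval -1.66 to -0.75, adjusted p = 0.000928) in Fgf10+/- and -1.51 (95% interval -1.97 to -1.06, adjusted p = 0.000254) in wild-type lungs. Gins1 fell (-0.75 in Fgf10+/- and -0.94 in wild-type lungs), and Gins4 (-0.42 in Fgf10+/- and -0.62 in wild-type lungs). Gins3 read 11.06, 10.83, 11.04 and 10.74 in the Fgf10+/- hyperoxia arrays and 10.77, 10.70, 10.68 and 10.62 in the Fgf10+/- normoxia arrays. It read 10.87, 11.08, 11.02 and 11.10 in wild-type hyperoxia and 11.14, 10.91, 10.82 and 10.59 in wild-type normoxia. The ranges of Gins3 overlapped in each genotype, and its change was 0.22 (95% interval -0.03 to 0.47, adjusted p = 0.198) in Fgf10+/- and 0.15 (95% interval -0.09 to 0.40, adjusted p = 0.414) in wild-type lungs. Of the remaining 3 genes, Cdc45, which completes the active helicase, fell (-0.95 in Fgf10+/- and -0.95 in wild-type lungs), at signals near the array median. Dbf4, the regulatory subunit of the CDC7 kinase, fell by 0.77 in Fgf10+/- lungs, while its change of -0.48 in wild-type lungs was not called (adjusted p = 0.0958). Cdc7 itself changed by -0.32 (adjusted p = 0.519) in Fgf10+/- and -0.40 (adjusted p = 0.426) in wild-type lungs, at group means under the array median.

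Among the polymerases and primase, 7 of 8 genes fell in Fgf10+/- lungs and 6 of 8 in wild-type lungs. Prim1, the catalytic primase subunit that lays the RNA primer, read 8.61, 9.24, 8.74 and 9.08 in the Fgf10+/- hyperoxia arrays and 10.46, 10.10, 10.17 and 10.06 in the Fgf10+/- normoxia arrays. It read 8.83, 8.29, 8.505 and 8.84 in wild-type hyperoxia and 10.03, 9.63, 10.06 and 9.98 in wild-type normoxia. Every hyperoxia array lay below every normoxia array of its genotype. The change was -1.28 (95% interval -1.64 to -0.92, adjusted p = 0.000107) in Fgf10+/- pups and -1.31 (95% interval -1.67 to -0.95, adjusted p = 0.000134) in wild-type pups. Pole, the catalytic subunit of the leading-strand polymerase epsilon, fell (-1.11 in Fgf10+/- and -1.33 in wild-type lungs), and its partner Pole2 (-1.24 in Fgf10+/- and -0.90 in wild-type lungs). Averaged with 2 dim features of the same gene, the Pole change was -0.50 in Fgf10+/- lungs (adjusted p = 0.0814) and -0.61 in wild-type lungs. Pola1, the catalytic subunit of polymerase alpha, fell (-1.19 in Fgf10+/- and -0.87 in wild-type lungs), Prim2 (-0.71 in Fgf10+/- and -0.74 in wild-type lungs), and Pold2 (-0.71 in Fgf10+/- and -0.81 in wild-type lungs). Pold1, the catalytic subunit of polymerase delta, read 8.97, 9.39, 8.95 and 9.02 in the Fgf10+/- hyperoxia arrays and 9.75, 9.41, 9.56 and 9.32 in the Fgf10+/- normoxia arrays. Its values were 9.01, 8.75, 8.97 and 9.28 in wild-type hyperoxia and 9.33, 9.22, 9.57 and 9.38 in wild-type normoxia. These groups overlapped. Pold1 passed in Fgf10+/- lungs at -0.43 (95% interval -0.73 to -0.13, adjusted p = 0.0369) and not in wild-type lungs at -0.38 (95% interval -0.67 to -0.08, adjusted p = 0.0776). Pola2 changed by -0.52 (adjusted p = 0.267) in Fgf10+/- and -0.58 (adjusted p = 0.234) in wild-type lungs at signals near the array median.

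The sliding clamp PCNA, its loader RFC and the single-strand binding protein RPA make up the next class, in which 6 of 8 genes fell in each genotype. Pcna read 11.07, 11.49, 11.10 and 10.99 in the Fgf10+/- hyperoxia arrays and 12.47, 12.05, 12.32 and 12.12 in the Fgf10+/- normoxia arrays. It read 11.06, 10.93, 10.98 and 11.21 in wild-type hyperoxia and 12.06, 11.97, 12.17 and 12.05 in wild-type normoxia. The groups did not overlap, and the change was -1.07 (95% interval -1.34 to -0.81, adjusted p = 3.98e-05) in Fgf10+/- and -1.02 (95% interval -1.28 to -0.75, adjusted p = 9.13e-05) in wild-type lungs. The 5 loader subunits moved unequally. Rfc3 read 6.23, 5.83, 5.79 and 6.29 in the Fgf10+/- hyperoxia arrays and 7.49, 7.14, 7.31 and 6.94 in the Fgf10+/- normoxia arrays. It read 6.14, 6.02, 5.70 and 5.90 in wild-type hyperoxia and 7.65, 7.17, 7.42 and 7.23 in wild-type normoxia. Rfc3 had no overlap between the groups and the largest fall of the class, -1.19 (95% interval -1.53 to -0.85, adjusted p = 0.000127) in Fgf10+/- and -1.43 (95% interval -1.77 to -1.08, adjusted p = 5.03e-05) in wild-type lungs. Rfc5 fell (-0.82 in Fgf10+/- and -0.85 in wild-type lungs), and Rfc4 (-0.55 in Fgf10+/- and -0.53 in wild-type lungs). The second, dimmer feature of Rfc4 gave -0.20 in Fgf10+/- and -0.10 in wild-type lungs. With the mean of both features neither Rfc4 call held. Rfc1, the large subunit, changed by -0.28 (adjusted p = 0.0762) in Fgf10+/- and -0.28 (adjusted p = 0.0879) in wild-type lungs. Rfc2 read 9.09, 9.42, 9.25 and 8.93 in the Fgf10+/- hyperoxia arrays and 9.50, 9.36, 9.52 and 9.12 in the Fgf10+/- normoxia arrays. It read 9.33, 9.39, 9.06 and 9.29 in wild-type hyperoxia and 9.40, 9.13, 9.59 and 9.25 in wild-type normoxia. The ranges of Rfc2 overlapped, with changes of -0.20 (95% interval -0.49 to 0.09, adjusted p = 0.33) in Fgf10+/- and -0.07 (95% interval -0.37 to 0.22, adjusted p = 0.773) in wild-type lungs. For RPA, Rpa2 fell (-1.04 in Fgf10+/- and -1.13 in wild-type lungs), and Rpa1 (-0.54 in Fgf10+/- and -0.55 in wild-type lungs). The second feature of Rpa1 gave -1.11 in Fgf10+/- and -0.88 in wild-type lungs.

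Okazaki fragments on the lagging strand are trimmed by the flap endonuclease FEN1 and joined by DNA ligase 1. Fen1 read 9.14, 9.19, 9.03 and 9.23 in the Fgf10+/- hyperoxia arrays and 10.60, 10.16, 10.22 and 10.06 in the Fgf10+/- normoxia arrays. It read 8.78, 8.56, 8.68 and 8.90 in wild-type hyperoxia and 10.11, 9.85, 10.23 and 10.03 in wild-type normoxia. Here the hyperoxia arrays were all lower than the normoxia arrays. Lig1 read 9.30, 9.62, 9.43 and 9.47 in the Fgf10+/- hyperoxia arrays and 10.58, 10.32, 10.28 and 10.21 in the Fgf10+/- normoxia arrays. Its values were 9.44, 9.03, 9.11 and 9.53 in wild-type hyperoxia and 10.32, 10.15, 10.19 and 10.11 in wild-type normoxia. Lig1 also showed no overlap in either genotype. The change of Fen1 was -1.12 (95% interval -1.38 to -0.85, adjusted p = 3.27e-05) in Fgf10+/- pups and -1.33 (95% interval -1.59 to -1.06, adjusted p = 1.55e-05) in wild-type pups. Lig1 fell (-0.89 in Fgf10+/- and -0.92 in wild-type lungs).

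The largest fall of all 46 genes was in nucleotide supply. Ribonucleotide reductase makes deoxynucleotides from ribonucleotides, and Rrm2 encodes its S-phase small subunit. Rrm2 read 8.28, 9.47, 9.13 and 9.32 in the Fgf10+/- hyperoxia arrays and 11.21, 10.99, 10.83 and 10.84 in the Fgf10+/- normoxia arrays. It read 8.74, 8.13, 7.90 and 8.75 in wild-type hyperoxia and 10.41, 10.32, 10.67 and 10.44 in wild-type normoxia. The groups lay more than 1 log2 unit apart at their nearest arrays, and Rrm2 was 3.78-fold lower in Fgf10+/- lungs (-1.92, 95% interval -2.44 to -1.40, adjusted p = 8.43e-05) and 4.23-fold lower in wild-type lungs (-2.08, 95% interval -2.60 to -1.56, adjusted p = 6.91e-05). The large subunit Rrm1 fell (-0.92 in Fgf10+/- and -1.01 in wild-type lungs). Tk1, the cytosolic thymidine kinase of the salvage pathway, fell (-1.43 in Fgf10+/- and -1.88 in wild-type lungs), which is 2.70-fold in Fgf10+/- and 3.68-fold in wild-type lungs. Tyms, the thymidylate synthase of the de novo pathway, read 4.87, 5.20, 5.0002 and 5.43 in the Fgf10+/- hyperoxia arrays and 5.58, 5.44, 5.12 and 4.83 in the Fgf10+/- normoxia arrays. It read 4.37, 5.02, 5.20 and 4.998 in wild-type hyperoxia and 4.95, 5.64, 4.99 and 5.56 in wild-type normoxia. The Tyms groups overlapped, with changes of -0.12 (95% interval -0.60 to 0.36, adjusted p = 0.769) in Fgf10+/- and -0.39 (95% interval -0.87 to 0.09, adjusted p = 0.269) in wild-type lungs. The interval in wild-type lungs reaches down to -0.87, so a fall of Tyms up to that size lies within it.

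**Figure D2:**
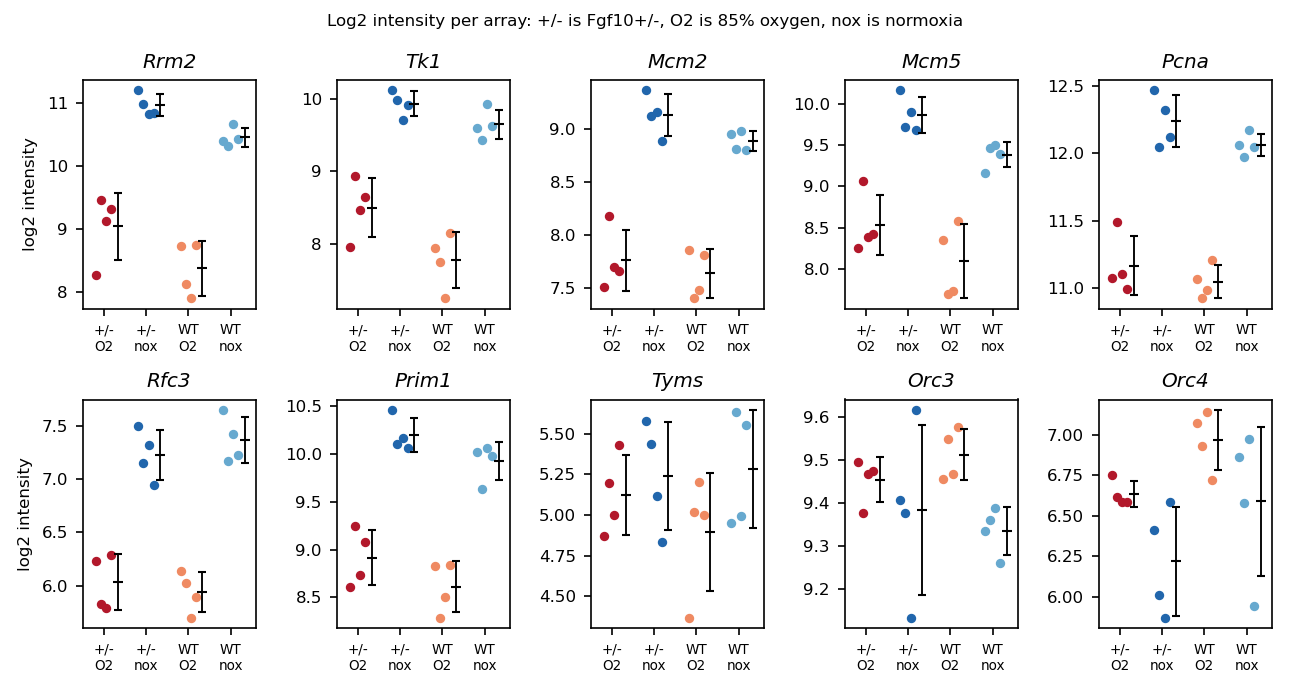
Log2 intensity per array (y axis) of 10 replication genes in the 4 groups (x axis), with the mean and SD of 4 arrays beside the points; the y axes differ between panels and do not start at 0. The 7 genes Rrm2, Tk1, Mcm2, Mcm5, Pcna, Rfc3 and Prim1 show separate hyperoxia and normoxia clusters in both genotypes, and Tyms shows overlapping ones.

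In all, 13 of the 46 genes were called in neither genotype: the 6 origin recognition subunits, Gins3, Cdc7, Mcm8, Pola2, Rfc1, Rfc2 and Tyms. Under alternative settings some of them passed. Rfc1 was called lower in 4 of 17 settings in Fgf10+/- lungs and in 1 of 17 in wild-type lungs. Mcm8 was called lower in 1 of 17 settings in Fgf10+/- lungs, and Orc1 in 1 of 16 in wild-type lungs. A missed threshold does not show that a gene stayed level, and the intervals differ in width. For Orc3, Gins3, Rfc1 and Rfc2 they reached no lower than -0.13, -0.03, -0.51 and -0.49 in Fgf10+/- lungs, so a 2-fold fall lies outside them. For Orc1, Cdc7 and Pola2, all dim, they reached -1.06, -0.97 and -1.19 in Fgf10+/- lungs.

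**Figure D3:**
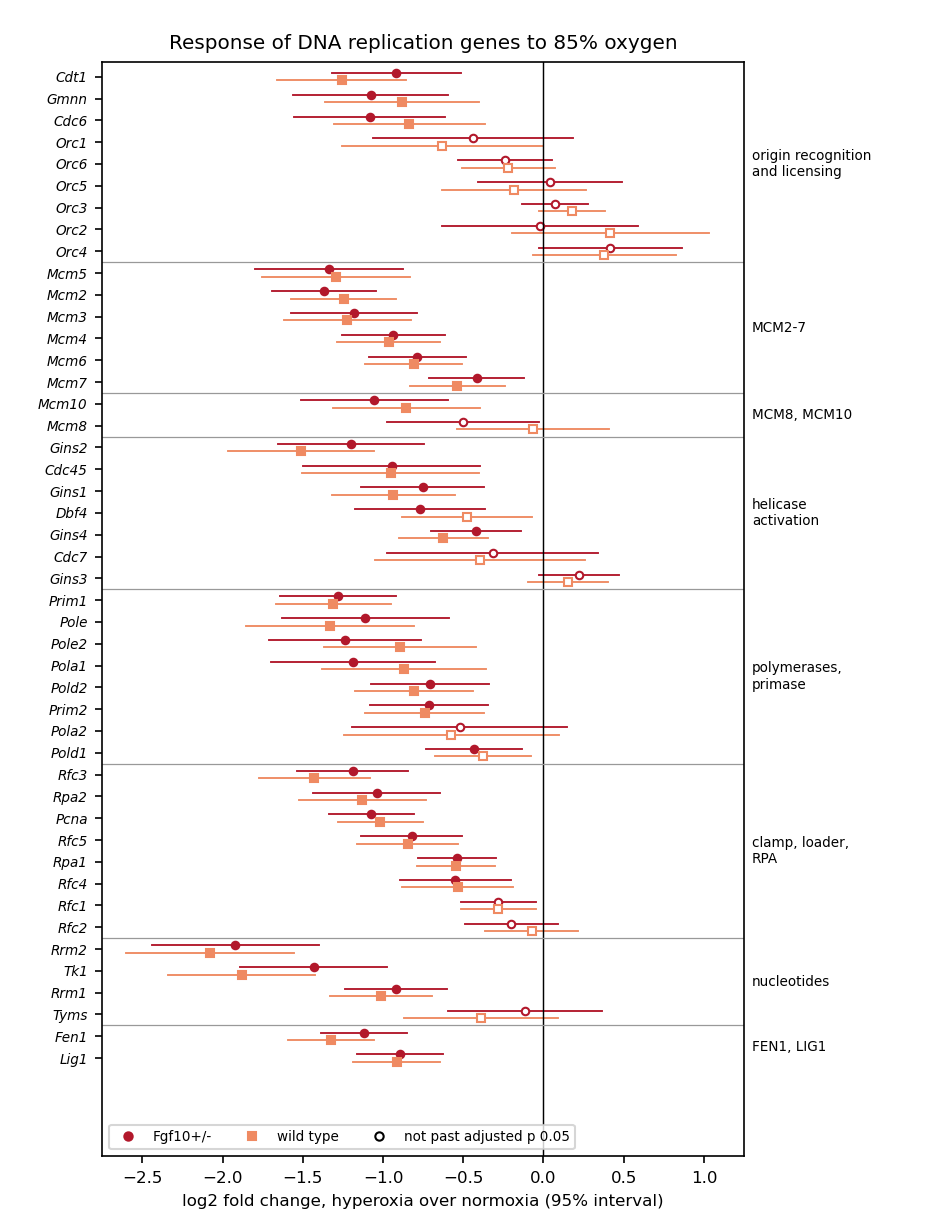
Change of each replication gene in 85% oxygen, as log2 fold change of hyperoxia over normoxia (x axis) with its 95% interval, for Fgf10+/- (circles) and wild-type lungs (squares); open symbols did not pass an adjusted p of 0.05. Rrm2 and Tk1 lie farthest left, the 6 MCM subunits are filled in both genotypes, and the 6 Orc genes are open in both.

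The responses of the 46 genes in the 2 genotypes were set side by side. The Fgf10+/- and wild-type comparisons share no arrays. Of the 46 genes, 31 were called lower in both, 2 in Fgf10+/- lungs only (Dbf4 and Pold1) and 0 in wild-type lungs only. With only the groups compared in the fit, Dbf4 was instead called in wild-type lungs (adjusted p = 0.0367) and not in Fgf10+/- lungs (adjusted p = 0.0529). Pold1 lost its Fgf10+/- call in 9 of 17 alternative settings and was called lower in wild-type lungs in 3 of 17. The changes in the 2 genotypes correlated across the 46 genes with r = 0.93 and rho = 0.92, a description over genes that share arrays and are not independent. The difference between the 2 responses was tested as the genotype by oxygen interaction. It passed for 0 of the 46 genes in limma, with 0 at an unadjusted p under 0.05, and for 0% of all 20173 genes, of which 1335 had an unadjusted p under 0.05. The highest interaction value was that of Tk1, 0.45 (95% interval -0.20 to 1.09, adjusted p = 0.838), which means a smaller fall in Fgf10+/- lungs. For Dbf4 and Pold1 it was -0.29 (95% interval -0.86 to 0.28) and -0.06 (95% interval -0.48 to 0.37), so neither gene was shown to respond differently.

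Fgf10+/- lungs were next compared with wild-type lungs at the same oxygen level. No replication gene passed the test in hyperoxia, where 0.411% of all genes were called (0.292% higher and 0.119% lower). None passed in normoxia, where 0.719% were called (0.114% higher and 0.605% lower), or averaged over both oxygen levels, where 2.24% were called (0.917% higher and 1.32% lower). In hyperoxia 1 member, Fen1, had all 4 Fgf10+/- arrays above all 4 wild-type arrays and 0 lay below, against 3.13% and 2.85% of all genes. In normoxia 3 lay above, Rrm1, Rrm2 and Mcm5, and 0 below, against 3.02% and 4.52%. At an unadjusted p under 0.05 limma gave 6 genes in hyperoxia, 4 in normoxia and 14 averaged, against 9.01%, 12.9% and 14.2% of all genes. The 6 genes in hyperoxia were Tk1 (0.73, adjusted p = 0.240), Rrm2 (0.67, adjusted p = 0.395), Pole (0.65, adjusted p = 0.409), Orc1 (0.63, adjusted p = 0.553), Rrm1 (0.46, adjusted p = 0.310) and Fen1 (0.41, adjusted p = 0.262). The 4 in normoxia were Mcm10 (0.57, adjusted p = 0.266), Pole2 (0.53, adjusted p = 0.328), Mcm5 (0.49, adjusted p = 0.357) and Rrm1 (0.36, adjusted p = 0.313). All of these were on the side of higher signal in Fgf10+/- lungs, as were 13 of the 14 averaged, while Orc4 was lower (-0.35, adjusted p = 0.282).

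Taken over all 46 genes, those just named included, most estimates leaned the same way. In hyperoxia 39 of 46 were above 0, with a median of 0.17, and in normoxia 39 of 46, with a median of 0.15, while 51.1% and 50.5% of all genes were below 0. All 46 genes share the same arrays, so counting them adds no replication. Leaving out 1 array at a time, the median ranged from 0.09 to 0.24 in hyperoxia and from 0.08 to 0.24 in normoxia, with 6 to 15 genes below 0 in each. Fgf10+/- replicate 2 in hyperoxia lay above its group mean for 42 of 46 genes, and without it the median was 0.09, with 15 genes below 0. Fgf10+/- replicate 1 in normoxia also lay above its group mean for 42 of 46 genes, and without it the median was 0.08, again with 15 genes below 0. The highest medians were those without wild-type replicate 4 in hyperoxia and without Fgf10+/- replicate 2 in normoxia. Averaged over both oxygen levels, the lowest adjusted p was that of Rrm1, 0.0593, for a difference of 0.41 (95% interval 0.19 to 0.64).

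The mitosis and cycling genes, a list of 12 of which 10 were measured, gave calls between the genotypes. This list, too, was chosen with earlier results of these data known. They include Mki67, the gene of the proliferation marker Ki-67. In 85% oxygen 10 of 10 fell in both genotypes, with medians of -1.57 in Fgf10+/- and -2.24 in wild-type lungs. Of all genes, 10.7% were called lower in Fgf10+/- and 8.74% in wild-type lungs. Mki67 fell (-1.51 in Fgf10+/- lungs and -1.97 in wild-type lungs, log2). In hyperoxia 7 of the 10 were called higher in Fgf10+/- than in wild-type lungs, with a median of 1.33, against 0.292% of all genes. In normoxia 1 was, Cdk1, with a median of 0.59 over the list, against 0.114% of all genes. With only the groups compared in the fit, 0 of all 20173 genes were called between genotypes at either oxygen level, so these calls were lost. Averaged over both oxygen levels all 10 were called higher, against 0.917% of all genes. In the same arrays the replication genes had a median genotype difference of 0.17, and the difference between the lists was not tested. The interaction passed for 0 of the 10 cycling genes.

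**Figure D4:**
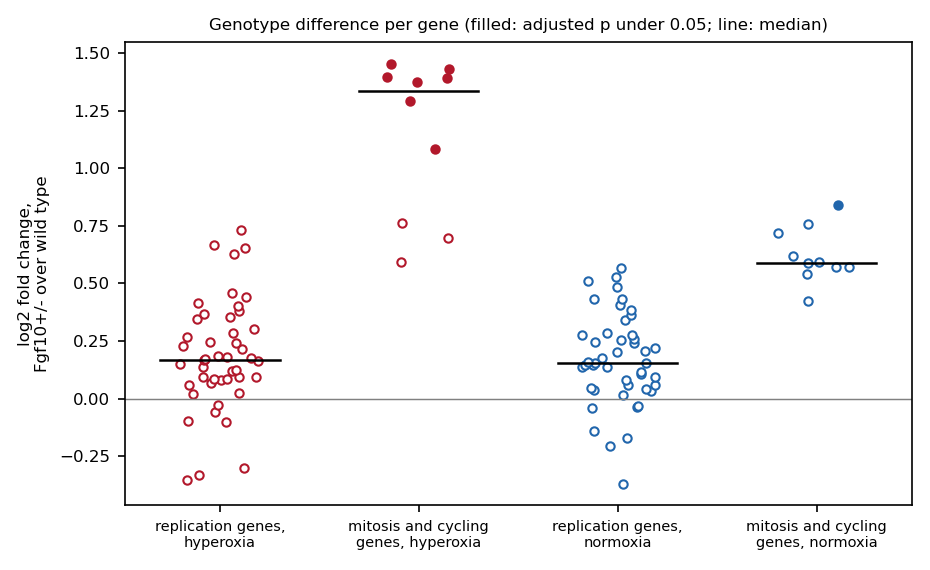
Difference between Fgf10+/- and wild-type lungs per gene, as log2 fold change (y axis), for the 46 replication genes and the 10 mitosis and cycling genes in hyperoxia and in normoxia; horizontal lines mark medians and filled points passed an adjusted p of 0.05. The replication genes centre on 0.17 and 0.15 with none filled, and the cycling genes in hyperoxia centre on 1.33 with 7 filled.

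Genes that work beside the 46 were counted from further lists, to be read against the 10.7% of all genes called lower and 13% higher in Fgf10+/- lungs and the 8.74% and 10.3% in wild-type lungs. Of 22 other replication genes 11 fell and 0 rose in Fgf10+/- lungs, and 11 fell and 0 rose in wild-type lungs. Chtf18, of the alternative clamp loader, fell (-1.40 in Fgf10+/- and -1.49 in wild-type lungs), Ticrr, a factor of origin firing also called treslin, fell (-1.43 in Fgf10+/- and -1.53 in wild-type lungs), and Topbp1, its partner, fell (-0.86 in Fgf10+/- and -0.62 in wild-type lungs). Of 11 measured genes of fork-coupled chromatin assembly and maintenance 9 fell in Fgf10+/- and 7 in wild-type lungs. Among them were Pclaf, a PCNA-binding factor (-1.10 in Fgf10+/- and -0.72 in wild-type lungs), Nasp, a histone chaperone (-0.87 in Fgf10+/- and -0.66 in wild-type lungs), and Asf1b, another histone chaperone (-1.36 in Fgf10+/- and -1.54 in wild-type lungs).

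Of 22 E2F and G1-to-S regulators 11 fell and 1 rose in Fgf10+/- lungs, and 10 fell and 2 rose in wild-type lungs. E2f1, an activator of replication genes, fell (-0.76 in Fgf10+/- and -0.88 in wild-type lungs). The repressor E2f8 fell (-1.35 in Fgf10+/- and -1.502 in wild-type lungs), and Skp2, a ubiquitin ligase subunit that marks the inhibitor p27 for breakdown, fell (-1.33 in Fgf10+/- and -1.05 in wild-type lungs). E2f2 rose by 0.61 in Fgf10+/- and by 0.83 in wild-type lungs. Of 10 cell cycle arrest genes 5 rose and 3 fell in each genotype. Cdkn1a, the gene of the inhibitor p21, which binds cyclin-dependent kinases and PCNA, rose to 10.45 ± 0.14 in Fgf10+/- hyperoxia, against 7.99 ± 0.25 in Fgf10+/- normoxia (SD, n = 4 each). In wild-type lungs Cdkn1a rose by 1.90 (limma adjusted p = 1.67e-06). Cdkn2c, the gene of another inhibitor of cyclin-dependent kinases, went the other way. Its mean was 6.52 in Fgf10+/- hyperoxia against 7.94 in Fgf10+/- normoxia, and 5.99 in wild-type hyperoxia against 7.40 in wild-type normoxia. Of 13 other measured nucleotide genes 2 fell and 3 rose in Fgf10+/- lungs, and 1 fell and 1 rose in wild-type lungs, near the shares of all genes. Dut, the dUTPase that keeps uracil out of DNA, fell (-1.64 in Fgf10+/- and -1.42 in wild-type lungs), and Mthfd1, of one-carbon folate metabolism, rose by 0.50 in Fgf10+/- and by 0.54 in wild-type lungs.

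Marker lists of other tissues and cells were read on the same arrays. Thymus, which at this age holds many dividing cells, was followed by 9 genes. Their mean was 4.27 to 4.70 in Fgf10+/- hyperoxia, 4.43 to 4.68 in Fgf10+/- normoxia, 4.23 to 4.50 in wild-type hyperoxia and 4.43 to 4.65 in wild-type normoxia, with 0 of 9 called in either oxygen comparison. Rag1, Dntt, Ptcra and Cd8b1 of this list had group means under the array median. Cd4 and Cd3e, also of the list, lay above it, with group means of 6.67 to 6.98 and of 6.45 to 6.73. Erythroid genes, 6 measured, averaged 6.93 to 7.52 in Fgf10+/- hyperoxia, 6.45 to 8.17 in Fgf10+/- normoxia, 6.97 to 7.68 in wild-type hyperoxia and 6.58 to 7.18 in wild-type normoxia, and 1 of 6 was called, lower, in Fgf10+/- lungs. Of 15 lung cell markers 2 fell and 3 rose in Fgf10+/- lungs, and 2 fell and 2 rose in wild-type lungs, and of 8 immune markers 1 rose in each genotype. The lung and immune genes named next were chosen after their values were seen. The endothelial gene Pecam1 fell, at 7.95 ± 0.12 in Fgf10+/- hyperoxia against 8.63 ± 0.14 in Fgf10+/- normoxia, and at 7.68 ± 0.24 in wild-type hyperoxia against 8.65 ± 0.21 in wild-type normoxia (SD, n = 4 each). Cldn5, also an endothelial gene, was not called, with changes of 0.20 in Fgf10+/- lungs (adjusted p = 0.453) and 0.25 in wild-type lungs (adjusted p = 0.362). Hopx, an alveolar type 1 marker, rose by 1.37 in Fgf10+/- and by 1.04 in wild-type lungs. Ager, also an alveolar type 1 marker, did not move in 1 direction. Its mean was 12.02 in Fgf10+/- hyperoxia against 11.51 in Fgf10+/- normoxia, but 11.88 in wild-type hyperoxia against 12.05 in wild-type normoxia. Marco, a macrophage receptor, rose by 2.03 in Fgf10+/- and by 1.747 in wild-type lungs. The part of a changed cell mixture in the fall of the replication genes was not tested.

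**Figure D5:**
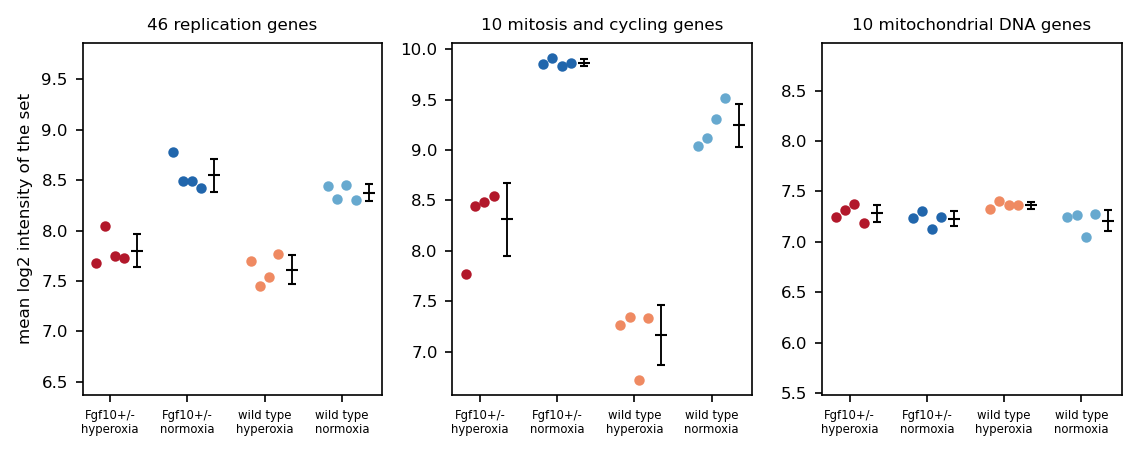
Mean log2 intensity per array (y axis) over the 46 replication genes, 10 mitosis and cycling genes, and 10 genes that copy mitochondrial DNA, in the 4 groups, with the mean and SD of 4 arrays; all panels span the same number of log2 units and do not start at 0. Replication genes read 7.68 to 8.04 and 7.45 to 7.77 in Fgf10+/- and wild-type hyperoxia, against 8.42 to 8.78 and 8.30 to 8.45 in normoxia, and the mitochondrial genes read 7.19 to 7.37 and 7.32 to 7.40 in Fgf10+/- and wild-type hyperoxia, against 7.13 to 7.31 and 7.05 to 7.27 in normoxia, without overlap in wild-type lungs.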

How the data were processed

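Total RNA of 16 lung homogenates was read on a 1-colour Agilent array, 1 array per sample. The values are the authors' deposited log2 intensities for 62976 features. The sources used here do not give the background correction or normalization. All arrays had nearly the same median, so no further normalization was applied. Features were named through the deposited platform annotation, updated by accession, current symbol or unique synonym to RefSeq: 31465 had 1 gene and 31511 had no single gene. A feature was kept when it exceeded the array's 25th percentile in at least 4 of 16 arrays, and the brightest feature stood for its gene, leaving 20173 genes.

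Groups came from the sample titles. limma 3.58.1 in R 4.3.3 was fitted to all 16 arrays with 1 mean per group, and p-values were adjusted by Benjamini-Hochberg over all genes of a contrast. A gene was called below an adjusted p of 0.05. Intervals cover 95%. The fit was tested on simulated data. The 46 genes and the lists were chosen with earlier results of these data known. Any of the 46 genes may be named. Values per array are given for the members with the lowest and highest mean oxygen change of each role, and for Mcm2, Pcna and Rrm2. Members called in neither oxygen comparison are all named. Of other lists, up to 3 genes per direction with the smallest p are named, and always Mki67, Cdkn1a and E2f1. Genes of the tissue marker lists fall outside this rule and were named after their values were seen. Replicate numbers are shared between groups, but same-numbered arrays did not deviate together (correlations -0.03 to 0.09), so no block was used. Alternatives were the filter, the choice of feature, the scaling, the variance model, array weights, separate fits, a replicate block and leaving out each array.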

Additional observations from a re-analysis of the deposited data

Results flagged for a closer look

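Of 184 sets of 4 arrays (46 genes in 4 groups), 5 held 1 array far from the other 3, and chance gives about 1 in 20. In Fgf10+/- hyperoxia, replicate 2 was high for Gins2 at 6.96, against 6.23 to 6.33 in the others, for Prim2 at 8.28, against 7.72 to 7.80, and for Pole2 at 6.91, against 6.07 to 6.21. In Fgf10+/- normoxia, replicate 1 was high for Rfc1 at 10.45, against 10.005 to 10.05. In wild-type hyperoxia, replicate 3 was high for Orc1 at 4.27, against 2.86 to 3.06.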

How the results depend on the processing

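Across 9 alternatives that kept all arrays, 28 to 34 of the replication genes fell in Fgf10+/- lungs and 29 to 33 in wild-type lungs, and leaving out 1 array at a time gave 30 to 34 and 28 to 31. Of the calls, 26 of 33 in Fgf10+/- lungs and 26 of 31 in wild-type lungs held in all 17 settings. The calls most often lost were Pold1 (9 settings), Mcm7 (8), Gins4 (7) and Rfc4 (4) in Fgf10+/- lungs and Rfc4 (7) and Pola1 (4) in wild-type lungs. With the replicate number as a block, 30 genes fell in Fgf10+/- and 30 in wild-type lungs, and 0 were called between genotypes.

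Averaged over both oxygen levels, the genotype comparison called 0 replication genes, but 1 with the filter at the 50th percentile (Rrm1, adjusted p = 0.0334), 3 with trend and robust moderation (Rrm1, Fen1 and Tk1), 1 with array weights (Rrm1) and 0 to 3 leaving out 1 array, with 3 without Fgf10+/- hyperoxia replicate 1. The other genotype contrasts and the interaction called 0 in each alternative run. Among all genes, 83 were called between genotypes in hyperoxia, but 223 with trend and robust moderation, 126 with the stricter filter, 37 with the block and 0 fitted to only those groups; in normoxia 145, but 433, 283 with the stricter filter, 290 with weights, 94 with the mean of features and 0 fitted to only those groups; averaged 452, but 827 and 701. Leaving out 1 array gave 13 to 80 in hyperoxia, a change of over 1.5 times for each array except Fgf10+/- replicate 1, and 44 to 292 in normoxia, with 292 without wild-type replicate 4, 44 without wild-type replicate 1, 59 without Fgf10+/- replicate 4, 65 without wild-type replicate 3 and 68 without either replicate 2. The averaged count ranged from 294 to 607, with 294 without wild-type normoxia replicate 1 and 296 without Fgf10+/- hyperoxia replicate 2. The cause was not tested.

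Directions turned only for genes that were not called. With the mean of features, Orc3 was -0.17 in Fgf10+/- and -0.10 in wild-type lungs and Orc4 -0.0028 in wild-type lungs. Orc5 in Fgf10+/- lungs was -0.0019 after quantile normalization, and Orc2 was 0.092 with weights. Leaving out single arrays, the change in Fgf10+/- lungs spanned -0.19 to 0.17 for Orc2, -0.013 to 0.15 for Orc3 and -0.10 to 0.18 for Orc5, and in wild-type lungs -0.29 to 0.029 for Orc5, -0.20 to 0.094 for Mcm8 and -0.15 to 0.0067 for Rfc2. The mean of features also moved Pole to -0.50 and -0.61, Gmnn to -0.61 and -0.60 (both calls lost), and Cdc6 to -0.62 in Fgf10+/- lungs. It moved Rfc4 to -0.37 in Fgf10+/- and -0.32 in wild-type lungs, and both calls were lost. Fitting only the groups compared has no separate value for the averaged contrast or the interaction, and Orc1 was not tested under the stricter filter. Signals near or under the array median (Orc1, Cdc7, Cdc45, Pola2) limit the precision of those genes.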

Other observations

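Polymerases of DNA repair and translesion synthesis did not follow a single direction. Of 10 measured, 4 fell and 1 rose in Fgf10+/- lungs, and 2 fell and 1 rose in wild-type lungs, where 10.7% of all genes fell and 13% rose in Fgf10+/- lungs and 8.74% fell and 10.3% rose in wild-type lungs. Polk, a translesion polymerase, rose by 0.66 in Fgf10+/- and by 0.90 in wild-type lungs, while Rev1, a scaffold of translesion synthesis, fell (-0.71 in Fgf10+/- and -0.90 in wild-type lungs) and Polq, of end joining, fell (-0.91 in Fgf10+/- and -1.05 in wild-type lungs). Of 10 genes that copy mitochondrial DNA, 1 rose and 0 fell in each genotype, near those shares. That gene was Top1mt, the mitochondrial topoisomerase, which rose by 0.64 in Fgf10+/- and by 0.83 in wild-type lungs.

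In Fgf10+/- hyperoxia the array with the highest mean over the replication genes was replicate 2, at 8.04, against 7.68 to 7.75 in the other 3. Its mean over the 10 cycling genes was 8.45, against 7.77, 8.49 and 8.54 in replicates 1, 3 and 4. In Fgf10+/- normoxia replicate 1 was the highest for the replication genes, at 8.78 against 8.42 to 8.49, and read 9.86 for the cycling genes, against 9.83 to 9.92.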
